A study of Mus musculus with 24 samples.

Results

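The genes described here are 10 genes of cytotoxic and exhausted T cells, Gzmk, Gzma, Gzmb, Prf1, Nkg7, Eomes, Pdcd1, Lag3, Tox and Cd8a. They were chosen by name: a probe belongs to a gene when the accession in the array file, without its version, is a RefSeq accession of that symbol. This gave 14 probes for 10 genes of the 22911 gene symbols on the array, and each gene was read from its brightest probe. RNA of white adipose tissue (WAT), kidney, lung and liver was hybridised in 1 colour to 24 Agilent arrays, and all mice were C57BL/6J males. Young mice were 10 weeks old (10W) and aged mice 90 weeks old (90W), with 3 arrays per age in each tissue. The aged livers are numbered 1, 2 and 4. The RNA is of whole tissue, so fewer cells of a type and less RNA per cell cannot be told apart.

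A cytotoxic T cell kills by releasing granules onto its target. Perforin opens the target's membrane, and granzymes, a family of serine proteases, enter and cleave proteins inside. CD8, made of the chains CD8 alpha and CD8 beta, holds the T cell receptor to MHC class I. T cells that see antigen for a long time take on a state called exhaustion, in which the transcription factor TOX and inhibitory receptors such as PD-1 (the product of Pdcd1) and LAG-3 are kept on. The transcription factor EOMES acts in both the effector and the exhausted state. Natural killer (NK) cells share the granule genes but lack the T cell receptor.

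Values are log2 of the processed signal minus the 75th percentile of the array, so 0 is a probe as bright as that percentile and each step of 1 is a doubling. A change is the aged mean minus the young mean on this scale, with its standard error (SE), and adjusted p is limma's, with Benjamini-Hochberg adjustment over all genes tested in the tissue. The word called is kept for an adjusted p under 0.05. Well above background is the call of the image software for a spot. All 10 genes passed the filter (a spot well above background on 3 or more of a tissue's 6 arrays) in every tissue. The labels do not say whether 1 mouse gave several tissues, and p-values measure the spread between these arrays.

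RefSeq (GRCm38.p6) held a promoter for 8 of the 10 genes, all but Lag3 and Tox. The stretches below are shown because the granule genes differed in their age change while carrying related promoter letters. Each runs 5′ to 3′ on the gene's strand and ends 1 base before the transcription start. Capitals mark the letters AGGTGT (a T-box core, the kind that EOMES and T-bet bind), TGTGGT (a RUNX core) or TGACTCA (an AP-1 site) on either strand. The letters of the first pair of motifs can overlap, but no match did so in these genes.
Gzmk, chr13:113180966-113181215, minus strand: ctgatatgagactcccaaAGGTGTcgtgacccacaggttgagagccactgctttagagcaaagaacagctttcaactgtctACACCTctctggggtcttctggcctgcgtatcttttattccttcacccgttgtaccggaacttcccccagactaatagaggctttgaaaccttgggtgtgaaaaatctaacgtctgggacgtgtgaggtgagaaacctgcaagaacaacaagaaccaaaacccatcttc
Gzma, chr13:113100982-113101131, minus strand: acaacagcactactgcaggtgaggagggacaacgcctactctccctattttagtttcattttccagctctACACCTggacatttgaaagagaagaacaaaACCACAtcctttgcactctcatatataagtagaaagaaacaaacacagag
Gzmb, chr14:56262335-56262484, minus strand: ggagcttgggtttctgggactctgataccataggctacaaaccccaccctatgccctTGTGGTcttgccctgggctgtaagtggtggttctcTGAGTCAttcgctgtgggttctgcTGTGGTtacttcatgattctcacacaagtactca
Prf1, chr10:61297686-61297835, plus strand: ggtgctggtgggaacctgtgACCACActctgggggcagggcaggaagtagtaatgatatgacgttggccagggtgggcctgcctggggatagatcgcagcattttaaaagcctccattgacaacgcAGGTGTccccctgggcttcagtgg
Nkg7, chr7:43436988-43437137, plus strand: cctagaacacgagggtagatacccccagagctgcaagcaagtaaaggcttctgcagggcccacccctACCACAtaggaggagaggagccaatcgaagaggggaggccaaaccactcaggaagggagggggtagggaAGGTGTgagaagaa
Pdcd1, chr1:94052554-94052703, minus strand: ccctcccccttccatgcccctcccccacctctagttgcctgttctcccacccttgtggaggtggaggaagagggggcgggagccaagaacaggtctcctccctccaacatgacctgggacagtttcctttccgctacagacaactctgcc

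In the 250 bases before the start, the T-box core was found in 4 of the 8 genes (Gzmk, Gzma, Prf1 and Nkg7), and 12.0% of the 27025 genes with a promoter held it. The RUNX core was found in 4 of 8 (Gzma, Gzmb, Prf1 and Nkg7), against 14.2% of all. The AP-1 site was found in 1 of 8, Gzmb, against 4.4% of all. Gzma, Prf1 and Nkg7 each held both a T-box and a RUNX core. Pdcd1, Eomes and Cd8a held none of these letters in that window. A match is a description of letters and not a binding site. In the changes given next, Nkg7 was called higher in liver and kidney. Gzma and Prf1, which carry the same pair, were called in no tissue. Whether the age changes relate to these letters was not tested.

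Pdcd1 rose in all 4 tissues and Gzmk in liver, kidney and WAT. In the kidney 8 of the 10 genes were called higher, in lung 5, in liver 4 and in WAT 2. Gzma and Prf1 were called in no tissue. These counts stand against a background that differs by tissue. Of all genes tested, 10.5% were called higher in liver, 2.72% in lung, 20.6% in kidney and 2.01% in WAT. Every aged array lay above every young array for 5 of the 10 genes in liver, 7 in lung, 8 in kidney and 7 in WAT. The same was true of 16.8%, 11.6%, 23.1% and 13.7% of all genes in those tissues. The median change of the 10 genes was 0.97 in liver (0.89 with Gzmk and Pdcd1 at their lower limits, given with these genes), 1.85 in lung, 1.79 in kidney and 1.94 in WAT. The median of all genes tested was -0.20, -0.08, -0.23 and -0.05. The balance of higher and lower calls over all genes moved with the scaling: it was 2928 higher and 4749 lower in liver and 6483 and 13410 in kidney, but 2516 and 972 and 9281 and 4392 when arrays were scaled to their spike-in spots, where 5 and 8 of the 10 genes were higher. With normexp background correction, liver had 2545 and 6527. WAT had the highest median change of the 10 genes and the fewest calls, with wide spread between its arrays.

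**Figure D1:**
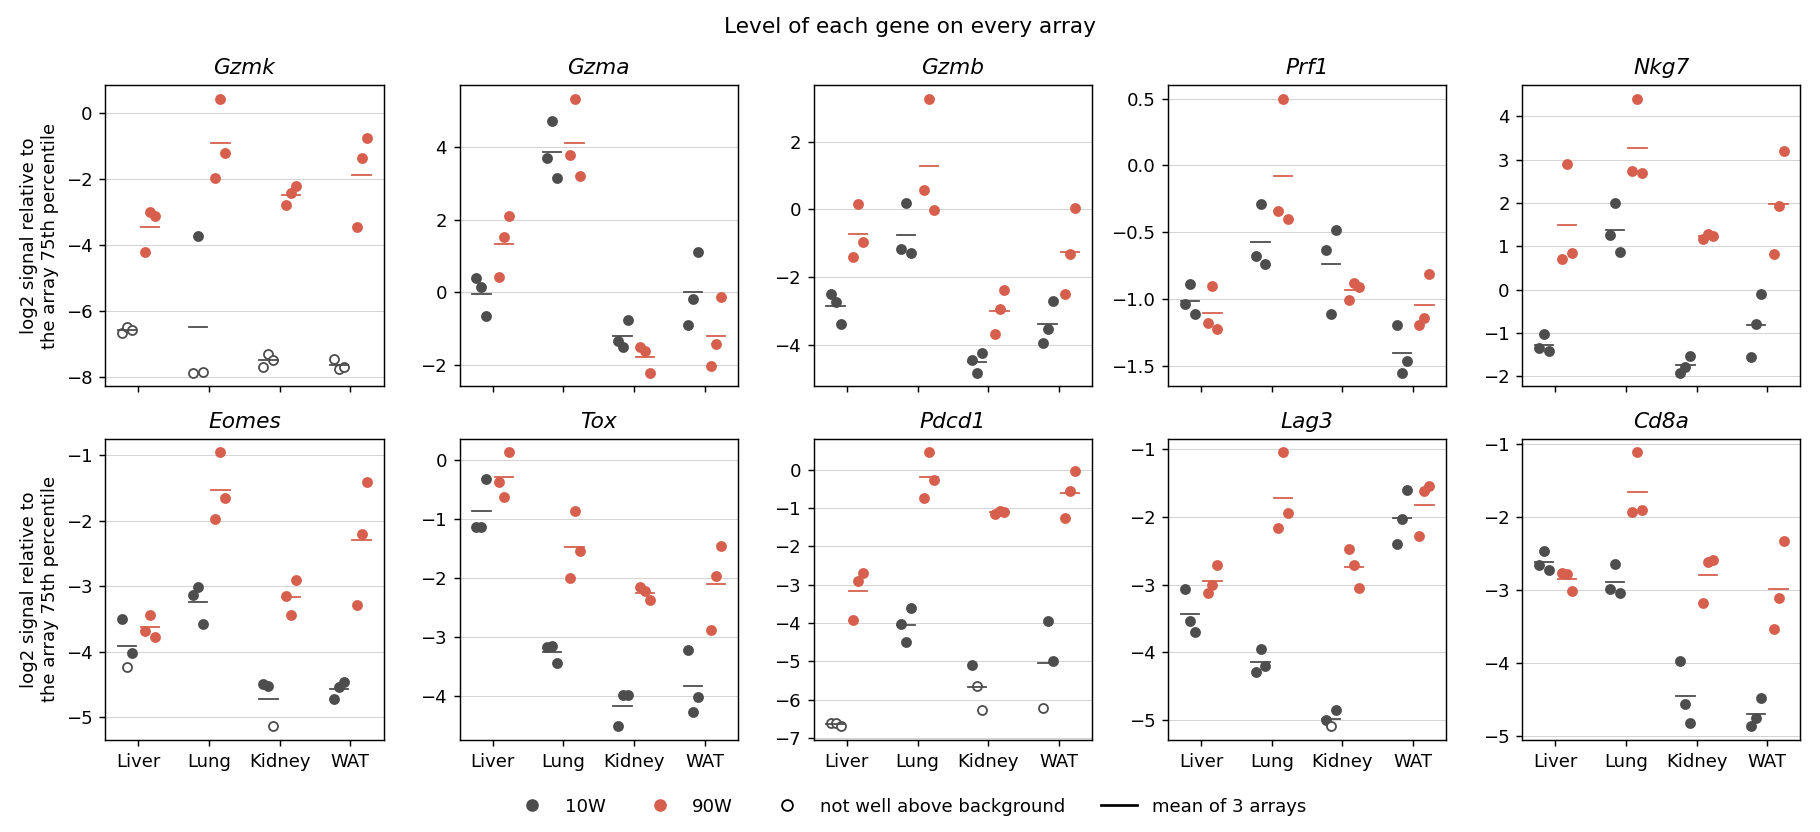
Level of each of the 10 genes on all 24 arrays, as log2 signal relative to the 75th percentile of the array (vertical axis, its range set for each gene), by tissue. Each point is 1 array, black for 10W and red for 90W, open where the probe was not well above background, and bars are means of 3 arrays. For Gzmk and Pdcd1 the red points lie above the black points in every tissue, and for Prf1 they overlap in every tissue.

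Gzmk encodes granzyme K, a granzyme with trypsin-like specificity. In the young liver its levels were -6.65, -6.49 and -6.58, none well above background, and in the aged liver -4.20, -3.0 and -3.13. In the kidney they were -7.68, -7.31 and -7.47 in young mice, none well above background, and -2.79, -2.41 and -2.22 in aged mice. In WAT they were -7.45, -7.74 and -7.69, again none well above background, and -3.46, -1.38 and -0.76. In these 3 tissues Gzmk thus went from no signal over background in any young mouse to a measured level in every aged mouse. Since the young values are only bounds, the rise is a lower limit, set against the dimmest signal called well above background on each young array or the probe's own value where that was higher. It was at least 2.31-fold in liver (adjusted p = 0.0024), at least 7.81-fold in kidney (adjusted p = 2.3e-05) and at least 13.6-fold in WAT (adjusted p = 0.017). In the lung, young replicate 2 was well above background at -3.74, while young replicates 1 and 3 were at -7.86 and -7.85 and were not. The aged lungs were at -1.97, 0.43 and -1.21. The groups did not overlap, but the change of 5.57 (SE 1.26) was not called (adjusted p = 0.062). Without young lung replicate 2 the change was 6.94, still not called (adjusted p = 0.057), while a fit of all 24 arrays called it (adjusted p = 0.0010) and so did normexp background correction (3.47, adjusted p = 0.038).

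Gzma encodes granzyme A, whose gene is the neighbour of Gzmk on chromosome 13 among protein-coding genes. It behaved unlike its neighbour. In the liver its levels were 0.39, 0.15 and -0.66 in young and 0.41, 1.51 and 2.09 in aged mice, with a change of 1.38 (SE 0.46, adjusted p = 0.063). In the lung, where Gzma was brightest, the levels were 3.69, 4.71 and 3.15 in young and 3.78, 5.33 and 3.19 in aged mice. The aged liver samples all lay above the young ones, and the lung groups overlapped (change 0.25, SE 0.64, adjusted p = 0.83). In the kidney the levels were -1.35, -1.49 and -0.77 in young and -1.49, -1.62 and -2.21 in aged mice. In WAT they were -0.91, -0.17 and 1.12 in young and -2.04, -1.42 and -0.12 in aged mice. The kidney change was -0.57 (SE 0.26, adjusted p = 0.099) and the WAT change -1.21 (SE 0.68, adjusted p = 0.38), so the sign of the fitted change was negative in these 2 tissues, without a call.

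Gzmb encodes granzyme B, which activates caspases in the target cell. In the liver its levels were -2.49, -2.75 and -3.38 in young and -1.42, 0.16 and -0.96 in aged mice, a 4.40-fold rise (log2 change 2.14, SE 0.43, adjusted p = 0.016). In the kidney they were -4.46, -4.83 and -4.25 in young and -3.68, -2.95 and -2.38 in aged mice, a 2.85-fold rise (1.51, SE 0.34, adjusted p = 0.0089). Neither pair of groups overlapped. In the lung the levels were -1.18, 0.18 and -1.29 in young and 0.58, 3.27 and -0.02 in aged mice, and in WAT -3.96, -3.54 and -2.70 in young and -2.49, -1.32 and 0.05 in aged mice. The fitted changes in these tissues, 2.04 (SE 0.92, adjusted p = 0.22) and 2.15 (SE 0.68, adjusted p = 0.17), were as large as in liver, but the aged arrays were spread over more than 2 log2 units and neither was called.

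Prf1 encodes perforin. Its levels were -1.04, -0.89 and -1.11 in young and -1.18, -0.90 and -1.22 in aged livers, and -0.63, -1.11 and -0.48 in young and -1.01, -0.88 and -0.91 in aged kidneys. In the lung they were -0.68, -0.29 and -0.74 in young and -0.34, 0.50 and -0.40 in aged mice, and in WAT -1.19, -1.55 and -1.46 in young and -1.19, -1.14 and -0.81 in aged mice. Young and aged groups overlapped in every tissue. The changes were -0.09 (SE 0.16) in liver, 0.49 (SE 0.28) in lung, -0.19 (SE 0.17) in kidney and 0.35 (SE 0.19) in WAT, with adjusted p from 0.30 to 0.70.

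Nkg7 encodes a membrane protein of cytotoxic granules. Its levels were -1.36, -1.03 and -1.42 in young and 0.71, 2.90 and 0.84 in aged livers, a 6.75-fold rise (log2 change 2.76, SE 0.56, adjusted p = 0.016). In the kidney they were -1.92, -1.78 and -1.54 in young and 1.16, 1.28 and 1.24 in aged mice, a 7.85-fold rise (2.97, SE 0.12, adjusted p = 3.2e-05). The aged kidneys lay within 0.12 of each other. In the lung the levels were 1.25, 1.99 and 0.87 in young and 2.73, 4.41 and 2.69 in aged mice, and in WAT -1.56, -0.80 and -0.10 in young and 0.82, 1.93 and 3.20 in aged mice. Neither of these pairs overlapped, and neither change passed the threshold (1.91, SE 0.54, adjusted p = 0.096 in lung, and 2.8, SE 0.67, adjusted p = 0.097 in WAT).

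Of the transcription factors, Eomes rose 3.28-fold in lung (log2 change 1.71, SE 0.29, adjusted p = 0.033) and 2.95-fold in kidney (1.56, SE 0.22, adjusted p = 0.0015). Its levels were -3.13, -3.02 and -3.58 in young and -1.98, -0.96 and -1.65 in aged lungs, and -4.49, -4.53 and -5.14 in young and -3.15, -3.44 and -2.90 in aged kidneys. In WAT they were -4.72, -4.54 and -4.47 in young and -3.29, -2.20 and -1.42 in aged mice, a change of 2.27 (SE 0.46) that was not called (adjusted p = 0.069). In the liver, young mice were at -3.50, -4.23 and -4.02 and aged mice at -3.68, -3.44 and -3.77, and the groups overlapped (0.29, SE 0.23, adjusted p = 0.36). A second Eomes probe was well above background on no array of any tissue.

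Tox, a high mobility group factor of the exhausted state, rose 3.46-fold in lung (log2 change 1.79, SE 0.29, adjusted p = 0.029) and 3.78-fold in kidney (1.92, SE 0.17, adjusted p = 0.00032). The lung levels were -3.18, -3.15 and -3.45 in young and -2.0, -0.86 and -1.55 in aged mice, and the kidney levels -4.52, -3.99 and -3.99 in young and -2.15, -2.22 and -2.38 in aged mice. In WAT they were -3.22, -4.28 and -4.03 in young and -2.88, -1.97 and -1.46 in aged mice (1.74, SE 0.45, adjusted p = 0.11). Groups did not overlap in these 3 tissues. The liver held the highest Tox level at both ages, above every array of the other tissues, with -1.13, -1.13 and -0.32 in young and -0.38, -0.62 and 0.13 in aged mice, which overlapped (0.57, SE 0.30, adjusted p = 0.18).

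Pdcd1 was the single gene of the 10 called in all 4 tissues. In the liver its levels were -6.62, -6.61 and -6.70 in young mice, none well above background, and -3.93, -2.91 and -2.69 in aged mice, a rise of at least 2.78-fold (adjusted p = 0.0019). In the lung they were -4.03, -4.49 and -3.61 in young and -0.75, 0.45 and -0.26 in aged mice, all well above background, a 14.5-fold rise (log2 change 3.86, SE 0.36, adjusted p = 0.011). The gap between the lowest aged and the highest young array was thus wide in both tissues. In the kidney the levels were -5.10, -5.65 and -6.27 in young mice, of which replicate 1 alone was well above background, and -1.16, -1.08 and -1.12 in aged mice (log2 change 4.55, SE 0.28, adjusted p = 0.00011). In WAT they were -6.23, -3.95 and -4.99 in young mice, with replicate 1 not well above background, and -1.26, -0.55 and -0.05 in aged mice (4.44, SE 0.62, adjusted p = 0.026). Dim young arrays enter these 2 fitted changes. The order of tissues by aged level was lung, WAT, kidney and liver. Of the tissues next to each other in this order, only kidney and liver did not overlap. The aged lungs also all lay above the aged kidneys, and the aged livers lay below all other aged arrays.

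Normexp background correction, which compresses dim signals, made the changes of the dim genes smaller. The Pdcd1 changes were then 0.82 in liver, 3.18 in lung, 2.69 in kidney and 3.04 in WAT, and those of Gzmk 1.07, 3.47, 1.97 and 2.98. All of these passed the threshold (adjusted p from 3.4e-07 to 0.041). The kidney changes of Eomes (0.58), Gzmb (0.84), Lag3 (1.2), Cd8a (0.89) and the liver and kidney changes of Pdcd1 thus moved by over 1.5 times without losing a call.

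Lag3 encodes a receptor that binds MHC class II, and its gene lies next to Cd4. It rose 5.37-fold in lung (log2 change 2.42, SE 0.30, adjusted p = 0.017) and 4.70-fold in kidney (2.23, SE 0.16, adjusted p = 0.00018). The lung levels were -4.29, -3.95 and -4.20 in young and -2.17, -1.05 and -1.94 in aged mice, and the kidney levels -4.99, -5.09 and -4.85 in young and -2.47, -2.71 and -3.05 in aged mice. Groups did not overlap in either. In the liver they were -3.06, -3.53 and -3.70 in young and -3.12, -3.01 and -2.71 in aged mice (0.48, SE 0.22, adjusted p = 0.14), and in WAT -2.40, -2.03 and -1.61 in young and -2.29, -1.62 and -1.55 in aged mice (0.19, SE 0.30, adjusted p = 0.76). Both of these pairs overlapped. On this probe WAT had the highest young level of Lag3, and all 4 tissues were apart from each other at 10 weeks. On a second, dimmer Lag3 probe, young WAT (-1.10, -4.02 and -4.06) and young lung (-3.77, -4.10 and -4.19) overlapped.

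Cd8a, the CD8 alpha chain, rose 3.16-fold in kidney (log2 change 1.66, SE 0.26, adjusted p = 0.0024) and 2.36-fold in lung (1.24, SE 0.25), where its adjusted p of 0.049 was just inside the threshold. The kidney levels were -3.97, -4.57 and -4.83 in young and -3.18, -2.62 and -2.60 in aged mice, and the lung levels -2.99, -2.65 and -3.04 in young and -1.94, -1.12 and -1.91 in aged mice. In WAT they were -4.87, -4.75 and -4.48 in young and -3.54, -3.12 and -2.33 in aged mice, apart but not called (1.70, SE 0.33, adjusted p = 0.062). In the liver all aged mice, at -2.77, -2.79 and -3.02, lay below all young mice, at -2.66, -2.47 and -2.73, a change of -0.24 (SE 0.16) that was not called (adjusted p = 0.29).

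**Figure D2:**
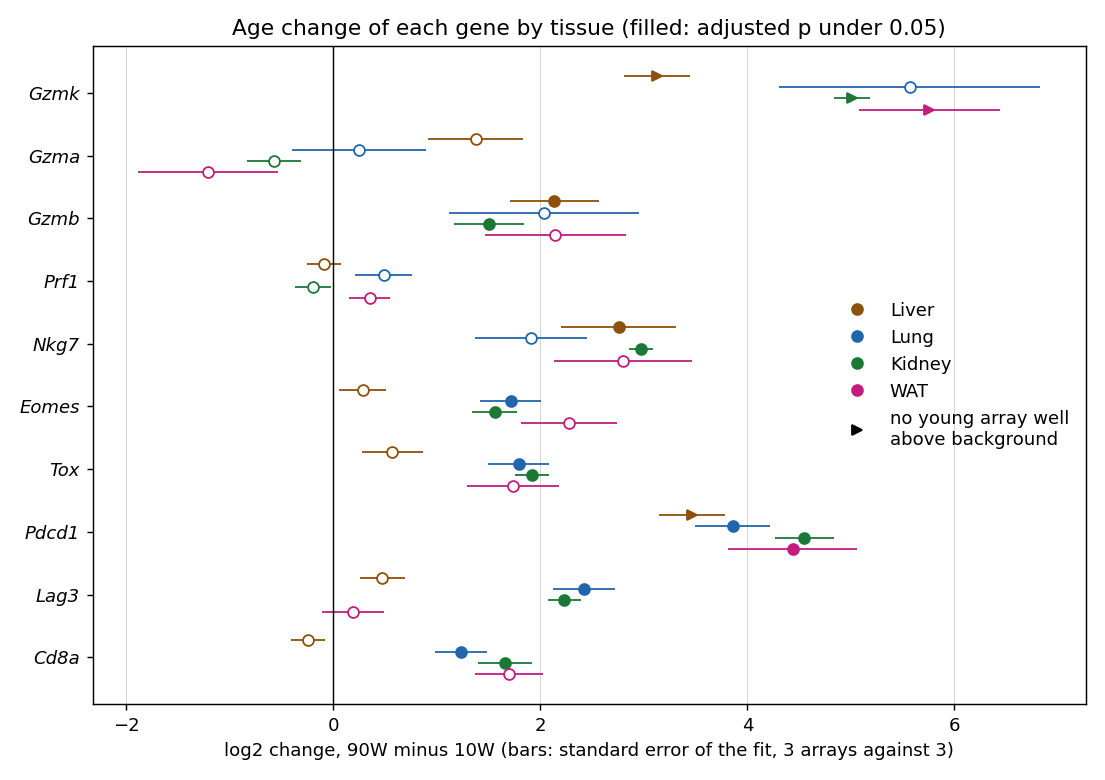
Log2 change from 10W to 90W of each gene (horizontal axis), coloured by tissue. Bars are the standard error of the fit of 3 arrays against 3, and filled points have an adjusted p under 0.05. Triangles mark fitted changes with no young array well above background, whose size is not measured. Pdcd1 is filled in all 4 tissues, and Gzma and Prf1 in none.

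A second probe of Cd8a, designed to another RefSeq transcript of the gene, was dimmer and was read in a fit of all probes. It rose in liver by at least 2.90-fold (adjusted p = 0.011), in kidney by 2.63 (SE 0.22, adjusted p = 0.00027) and in WAT by 3.60 (SE 0.48, adjusted p = 0.024), with young replicate 3 alone of the young WAT samples well above background. In the liver its levels were -4.64, -5.95 and -6.63 in young mice, none well above background, and -3.20, -3.14 and -3.01 in aged mice. On the same arrays the brighter probe's change was -0.24, without a call. The mean of both probes was called higher in liver (adjusted p = 0.021), a value that rests on the dim young signals of the second probe. The lung change of the dimmer probe, 2.02 (SE 0.53), was not called (adjusted p = 0.081). Cd8b1, the CD8 beta chain, whose gene is the neighbour of Cd8a, rose by 1.1 (SE 0.25, adjusted p = 0.022) in liver, by 2.01 (SE 0.18, adjusted p = 0.00035) in kidney and by 2.55 (SE 0.40, adjusted p = 0.036) in WAT, and its lung change of 1.24 (SE 0.26) had an adjusted p of 0.053. The second Lag3 probe passed the filter in 3 tissues, with changes of 1.07 (SE 0.29, adjusted p = 0.089) in lung, 1.75 (SE 0.41, adjusted p = 0.011) in kidney, where 1 of 3 young arrays was well above background, and -0.45 (SE 0.81, adjusted p = 0.79) in WAT. The second Tox probe was called in the same 2 tissues as the first, with 2.0 in lung (adjusted p = 0.026), where 1 of 3 young arrays was well above background, and at least 1.54-fold in kidney (adjusted p = 0.00018), where none was.

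**Figure D3:**
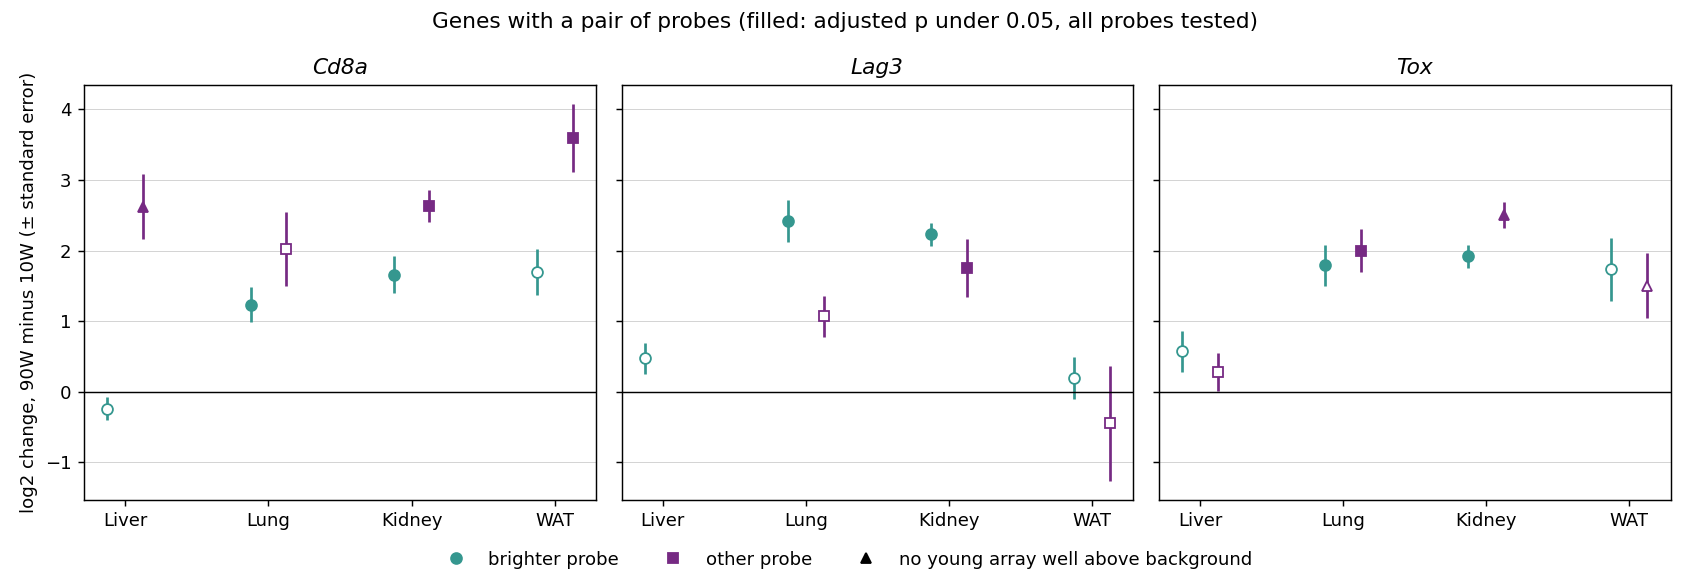
Log2 change from 10W to 90W (vertical axis, with standard error) of both probes of Cd8a, Lag3 and Tox in each tissue, circles for the brighter and squares for the other probe, filled at an adjusted p under 0.05 in a fit of all probes. Triangles mark fitted changes with no young array well above background, whose size is not measured. In liver the brighter Cd8a probe is at -0.24, not filled, and the other is a filled triangle, and the second Lag3 probe has no point there because it did not pass the filter.

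Whether an age change differed between tissues was tested in 1 fit of all 24 arrays, as the change in a tissue minus the mean change of the other tissues, over 34154 genes. A difference was called for 10.8% of all genes for liver, 9.65% for lung, 18.4% for kidney and 11.0% for WAT. Of the 10 genes, 3 differed in liver, Eomes by -1.56 (SE 0.41, adjusted p = 0.019), Lag3 by -1.14 (SE 0.32, adjusted p = 0.027) and Cd8a by -1.77 (SE 0.33, adjusted p = 0.0019). Lag3 alone differed in lung, by 1.46 (SE 0.32, adjusted p = 0.0085), in kidney, by 1.2 (SE 0.32, adjusted p = 0.013), and in WAT, by -1.52 (SE 0.32, adjusted p = 0.0061). Lag3 thus rose more in lung and kidney than elsewhere and less in liver and WAT. With the second probes in their place, an alternative chosen after seeing the data, no Lag3 or Cd8a difference was called. The second Cd8a probe was well above background on no young liver array and the second Lag3 probe on 1 of 6 liver arrays. These contrasts all include such liver values, so they show neither the presence nor the absence of a tissue difference. The second Cd8a probe still rose in liver by at least 2.90-fold, where the first changed by -0.24. The second Lag3 probe, well above background on all lung and WAT arrays, gave differences of 0.61 (SE 0.73) for lung and -1.42 (SE 0.73) for WAT. The second Tox probe gave called differences for liver (-1.72, SE 0.41, adjusted p = 0.012) and kidney (1.24, SE 0.41, adjusted p = 0.045). The first Tox probe gave -1.24 and 0.55, neither called. The second was well above background on all 6 liver arrays but on no young kidney or WAT array, so the size of its differences was not measured. Eomes has no second usable probe. For Pdcd1 and Gzmk no tissue difference was called, but their young levels were not well above background on any liver array, nor for Gzmk on any kidney or WAT array, so the size of these differences was not measured.

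The aged arrays of a tissue were ordered alike by many of the 10 genes. Aged lung replicate 2 had the highest level of the 3 aged lungs for all 10 genes, and it was the highest for 45.3% of all genes tested in lung. Aged WAT replicate 3 was the highest and replicate 1 the lowest of the aged WAT samples for all 10 genes, against 40.1% and 30.4% of all genes. Single animals thus stood high or low for the whole set at once. In the lung, the summed level of 12 NK cell genes was 17.8 times the 75th percentile in aged replicate 2 and 8.06 and 8.63 in replicates 1 and 3. The summed level of 12 B and plasma cell genes ran the other way, at 7.03 in aged lung replicate 2 and 91.1 and 100 in the others. Il2rb, a chain of the interleukin 2 receptor, was the brightest gene of the NK list in aged lungs, at a mean of 2.28. Ncr1, the receptor NKp46, was at a mean of -3.11. The part of NK, B and plasma cells in lung values was not tested. Without aged lung replicate 2, 5 of the 10 genes were still called higher in lung. Without young lung replicate 1 or 2 none was, without young replicate 3 there was 1, and without aged replicate 3 there were 2. In WAT the count fell from 2 to 0 without young replicate 3 or aged replicate 2, and to 1 without young replicate 2 or aged replicate 3. In the liver it was 2 without young replicate 2, and in kidney it stayed at 8 whichever array was left out.

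Young WAT replicate 1 stood apart from the other WAT arrays. The correlation over genes between young WAT arrays went down to 0.942, while in all other groups it lay between 0.979 and 0.995. Its level of Cd52, a surface glycoprotein of lymphocytes, was 8.52 against 4.44 and 4.20 in the other young WAT samples, and its level of Ptprc (CD45) 0.00 against 1.70 and 1.40. Without it, the same number of the 10 genes, 2, was called higher in WAT.

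Levels across tissues were compared on 1 probe a gene. Each tissue was hybridised on 1 slide of its own with both ages, so tissue and slide cannot be told apart in a level, while age was compared within a slide. At 10 weeks the lung had the highest mean level of 6 of the 10 genes, all but Gzmk, Lag3, Tox and Cd8a. Gzmk, well above background on 1 young array in all, was not ranked. Its Gzma, Gzmb and Nkg7 lay above every array of every other tissue. At 90 weeks the lung was highest for all but Tox, and it stood clear of the next tissue for Gzma, Prf1 and Cd8a.

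Over the 24 arrays, after the mean of each tissue was taken out, the correlations between the 10 genes ranged from -0.15 to 0.93 with a median of 0.75. These arrays share the age contrast, so the coefficients are a description. Gzma correlated with no other gene of the set above 0.40 and Prf1 with none above 0.62. Among all genes with a symbol, those most alike to Pdcd1 were Gpr65 (r = 0.97), Dusp2 (0.97) and Gimap7 (0.97). Gzmk was most like Cd6 (0.94), Lck (0.94) and Fasl (0.94), and Nkg7 was most like Ccl5 (0.97), Cst7 (0.96) and Runx3 (0.95). Eomes and Cd8a had each other and Cd3e among their closest 3 genes (0.92 to 0.94), joined by Themis (0.93) for Eomes and Ctsw (0.92) for Cd8a. Tox was closest to Cd5 (0.94), Il12rb1 (0.93) and Tigit (0.92), and Gzmb to Nkg7 (0.92), Fasl (0.92) and Slfn1 (0.91). Prf1 was closest to Prss3 (0.82), Prss2 (0.77) and Tarm1 (0.77), Gzma to Ppm1m (0.77), Samd11 (0.76) and Rb1 (0.75), and Lag3 to Haus3 (0.87), Cpne2 (0.87) and Pilrb1 (0.86).

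Many genes that mark T cells moved with the set. The lists that follow hold none of the 10 genes, and Cd244a, Ctla4, Ikzf2, Tcf7 and Lef1 each stand in 2 of them. Of 21 T cell identity genes, 13 of the 20 tested were called higher in liver, 16 of 21 in lung, 16 of 21 in kidney and 13 of 21 in WAT. In these 4 fits the single gene of the list called lower was Cd4 in kidney (-0.50, SE 0.11, adjusted p = 0.010). Genes called lower were 17.0% of all genes tested in liver, 2.89% in lung, 42.6% in kidney and 0.579% in WAT. The median change of the list was 1.2 in liver, 1.39 in lung, 2.41 in kidney and 2.55 in WAT, and 1.09, 1.39, 2.38 and 2.40 with genes of no young signal at their lower limits. Cd3e, a chain of the T cell receptor complex, rose in lung by 1.23 (SE 0.21, adjusted p = 0.033), in kidney by 0.80 (SE 0.11, adjusted p = 0.0012) and in WAT by 1.59 (SE 0.22, adjusted p = 0.026), and was at -0.28 (SE 0.16, adjusted p = 0.20) in liver. The T cell adaptor Sh2d1a, well above background on no young liver array, rose at least 1.63-fold in liver (adjusted p = 0.0035). Among called genes measured at both ages, the largest changes were those of the adhesion receptor Cd2 in liver (1.94, SE 0.31, adjusted p = 0.0085), of Sh2d1a in WAT (4.39, SE 0.68, adjusted p = 0.036), of Themis in lung (2.34, SE 0.35, adjusted p = 0.024) and of Cd3g in kidney (3.97, SE 0.22, adjusted p = 7.5e-05). For Sh2d1a only 1 young WAT array was well above background, so dim values enter its change. The summed level of the list was 31.1 to 37.0 in young and 65.4 to 93.8 in aged lungs, 12.8 to 17.2 and 31.0 to 36.6 in kidneys, and 22.9 to 27.4 and 39.0 to 56.3 in WAT. In the liver it was 59.9 to 79.8 in young and 55.7 to 59.6 in aged mice, and Cd4 at a mean of 5.53 in young and 5.09 in aged livers was its brightest gene. The set's changes were thus seen in tissues where many T cell genes also rose. In liver, though, Cd3e and the summed level of the list, whose brightest gene was Cd4, did not rise. Yet 13 of the 20 genes tested were called higher there and none lower. Among them, Cd3d rose by 1.13 (SE 0.19, adjusted p = 0.010) and Cd3g by 1.83 (SE 0.24, adjusted p = 0.0047). The part of T cell number was not tested.

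The wider killer granule machinery was read from a list of 19 genes, whose median change was 1.46 in liver (1.16 with such genes at their lower limits), 0.73 in lung, 1.67 in kidney and 1.5 in WAT. Of 13 genes tested of 19, 7 were called higher in liver, 2 in lung and 10 in kidney. In WAT limma called 0 and the t-test 0, 8 had an unadjusted p under 0.05 in limma's fit, all of them higher. Rab27a and Stxbp2, which act in granule release, were called lower in kidney, by -1.08 (SE 0.16, adjusted p = 0.0019) and -0.42 (SE 0.07, adjusted p = 0.0035). Cst7, an inhibitor of granule cathepsins, rose at least 9.18-fold in liver (adjusted p = 0.025) and at least 10.95-fold in kidney (adjusted p = 0.00043), and had the largest called change in lung (2.75, SE 0.40, adjusted p = 0.024). Fasl, the ligand of the death receptor FAS, rose by 2.06 (SE 0.37, adjusted p = 0.012) in liver and 3.24 (SE 0.33, adjusted p = 0.00052) in kidney. Only 1 young array was well above background for it in each of these tissues. The lung and WAT changes of Fasl were 2.76 (SE 0.70, adjusted p = 0.079) and 2.84 (SE 0.57, adjusted p = 0.065). Ifng, the interferon made by effector T and NK cells, rose at least 1.77-fold in liver (adjusted p = 0.039) and by 2.29 (SE 0.28, adjusted p = 0.00091) in kidney, with 2.14 (SE 0.56, adjusted p = 0.083) in lung and 2.10 (SE 0.66, adjusted p = 0.17) in WAT. In kidney only 1 young array was well above background for Ifng.

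NK cells could hold the same granule RNA. Of 12 NK cell genes, 5 of 7 tested were called higher in liver, 1 of 12 in lung, 6 of 9 in kidney and 0 of 10 in WAT, where 2 had an unadjusted p under 0.05 in limma's fit and the t-test called 0. Klrb1c was called lower in kidney. Ncr1, the receptor NKp46 that marks NK cells, was not well above background on any liver or kidney array at either age, and changed by 0.09 (SE 0.40, adjusted p = 0.90) in lung and 0.04 (SE 0.60, adjusted p = 0.98) in WAT. Klrd1 (CD94), which NK cells and activated CD8 T cells carry, rose by 1.22 (SE 0.26, adjusted p = 0.018) in liver and 2.24 (SE 0.12, adjusted p = 7.2e-05) in kidney, with 0.43 (SE 0.29, adjusted p = 0.37) in lung and 0.92 (SE 0.51, adjusted p = 0.38) in WAT. Xcl1 in liver (adjusted p = 0.037) and Il18rap in kidney (adjusted p = 6.7e-05) rose at least 2.20-fold and at least 2.69-fold, with no young array well above background. Among called genes measured at both ages, the largest changes were of the receptor Klrk1 in liver (1.28, SE 0.27, adjusted p = 0.018), Cd244a in lung (0.61, SE 0.09, adjusted p = 0.024) and Il2rb, a chain of the interleukin 2 receptor, in kidney (2.57, SE 0.15, adjusted p = 8.6e-05). The summed level of the 12 genes was 2.56 to 2.85 in young and 4.15 to 4.34 in aged livers, 2.42 to 2.50 and 3.73 to 4.52 in kidneys, 3.92 to 5.95 and 8.06 to 17.8 in lungs and 3.07 to 4.33 and 4.16 to 9.18 in WAT. At least 1 gene of the NK list thus rose in 3 tissues, and its part in the granule changes was not tested.

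Other inhibitory receptors were read from a list of 10. Of those tested, 5 of 6 were called higher in liver, 2 of 8 in lung, 7 of 8 in kidney and 3 of 8 in WAT, and none lower. Tigit, a receptor of exhausted and regulatory T cells, was well above background on no young array of the lung, kidney or WAT, and it rose at least 10.2-fold (adjusted p = 0.011), at least 2.42-fold (adjusted p = 2.7e-05) and at least 3.30-fold (adjusted p = 0.042) there. No liver array of either age was well above background for it. Havcr2 (TIM-3), which macrophages also carry, rose by 4.84 (SE 0.67, adjusted p = 0.0053) in liver, 3.81 (SE 0.18, adjusted p = 4.9e-05) in kidney and 3.71 (SE 0.38, adjusted p = 0.010) in WAT, with 0.63 (SE 0.34, adjusted p = 0.28) in lung. Only 1 young liver array was well above background for Havcr2. Ctla4 was not tested in any tissue, since it was well above background on at most 2 of the 6 arrays, all of them aged. Cd200r1, well above background on no young kidney array, rose at least 8.91-fold there (adjusted p = 8.5e-05). Of 11 genes for ligands of inhibitory receptors, 5 of 10 tested were higher and 3 lower in liver, 1 and 1 of 11 in lung, 8 and 2 of 11 in kidney and 2 and 0 of 11 in WAT. Cd274 (PD-L1), the ligand of PD-1, rose by 1.64 (SE 0.29, adjusted p = 0.011) in liver and 0.73 (SE 0.19, adjusted p = 0.015) in kidney, with 0.44 (SE 0.22, adjusted p = 0.26) in lung and 0.75 (SE 0.48, adjusted p = 0.44) in WAT. The largest called changes among the ligands were of Lgals3 (galectin 3) in liver (2.37, SE 0.46, adjusted p = 0.014) and WAT (2.61, SE 0.32, adjusted p = 0.019), Cd86 in kidney (2.94, SE 0.34, adjusted p = 0.00074) and Cd80 in lung (1.00, SE 0.19, adjusted p = 0.040).

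Of 16 other transcription factors of cytotoxic and exhausted T cells, 6 were called higher and 2 lower in liver, 1 and 0 in lung, 12 and 3 in kidney and 1 and 0 in WAT. Tox2 and Nr4a3, which act in exhaustion, were the pair called lower in liver, and they were lower in kidney too, with Id2. Tbx21 (T-bet), the T-box relative of Eomes, rose by 2.10 (SE 0.24, adjusted p = 0.00077) in kidney and 1.74 (SE 0.23, adjusted p = 0.023) in WAT, with 0.50 (SE 0.25, adjusted p = 0.16) in liver and 1.14 (SE 0.34, adjusted p = 0.11) in lung. Batf changed most in liver (3.25, SE 0.34, adjusted p = 0.0025), Runx3 in lung (1.67, SE 0.15, adjusted p = 0.011) and Irf4 in kidney (4.29, SE 0.31, adjusted p = 0.00018). Tcf7 (TCF-1), which marks naive and stem-like T cells, rose at least 8.91-fold in kidney (adjusted p = 0.00065), and its other changes were 0.36 (SE 0.40, adjusted p = 0.52) in liver, 0.23 (SE 0.15, adjusted p = 0.38) in lung and 0.66 (SE 1.47, adjusted p = 0.84) in WAT. The factors of this list thus did not share 1 direction.

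Receptors and chemokines of resident and effector T cells had calls in every tissue, 9 of 11 higher in liver, 7 in lung, 9 in kidney and 6 in WAT, where Itgae was lower. Cxcr3, a receptor of effector T cells, was the largest in lung (2.69, SE 0.15, adjusted p = 0.0059). Ccl3, a chemokine of activated T cells and macrophages, rose at least 14.9-fold in liver (adjusted p = 0.0016) and had the largest called change in kidney (3.90, SE 0.70, adjusted p = 0.0038) and WAT (6.06, SE 0.58, adjusted p = 0.0081). Ccl5 rose by 3.15 (SE 0.18, adjusted p = 0.0015) in liver and 3.53 (SE 0.14, adjusted p = 3.3e-05) in kidney, with 2.33 (SE 0.60, adjusted p = 0.079) in lung and 3.16 (SE 0.57, adjusted p = 0.050) in WAT, the last just outside the threshold. Of 8 naive T cell genes, 1 was higher and 1 lower in liver, 1 and 0 in lung, 6 and 1 in kidney and 1 and 0 in WAT. Il7r, the interleukin 7 receptor, was the largest in each (2.07, 1.64, 5.40 and 5.17). Of 6 regulatory T cell genes, 5 were tested, and 2 were higher in liver, 3 in lung, 5 in kidney and 1 in WAT, and the largest called were Tnfrsf18 (2.32 in liver and 3.49 in kidney), Il2ra (1.39 in lung) and Tnfrsf4 (1.40 in WAT).

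**Figure D4:**
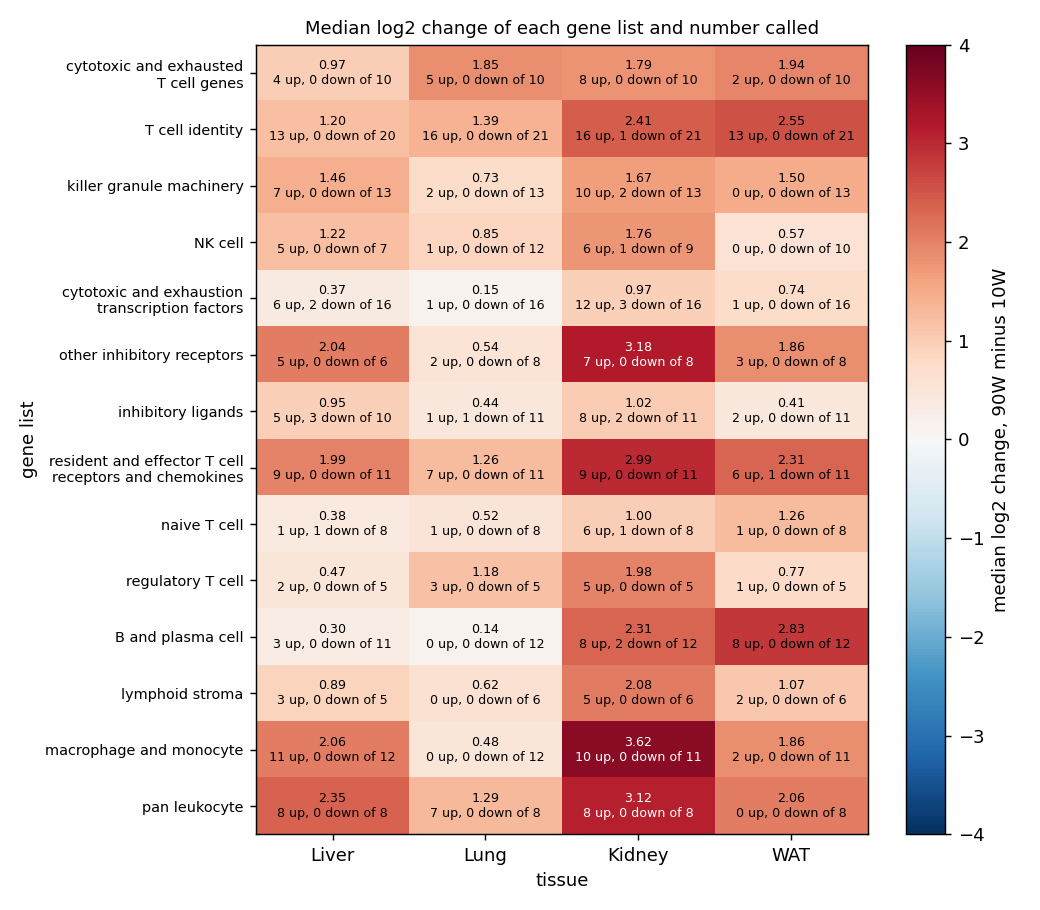
Median log2 change from 10W to 90W of each gene list (rows) in each tissue (columns), by colour and as the upper number of a cell, with the number of tested genes called higher and lower below it. The 10 genes described here are the top row, with medians of 0.97 to 1.94.

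Markers shared by leukocytes were called higher in liver, lung and kidney. All 8 pan leukocyte genes were called higher in liver and kidney, 7 of 8 in lung and 0 of 8 in WAT. In WAT 7 of the 8 had an unadjusted p under 0.05 in limma's fit, the t-test called 0, and 7 had every aged array above every young one. Ptprc rose by 2.41 (SE 0.22, adjusted p = 0.0019) in liver, 1.34 (SE 0.10, adjusted p = 0.0094) in lung and 2.99 (SE 0.14, adjusted p = 4.6e-05) in kidney, with 2.17 (SE 0.47, adjusted p = 0.079) in WAT. The largest called were Cd52 in liver (2.42) and lung (1.43) and Cd53 in kidney (3.56). The summed level of these genes was 11.5 to 13.3 in young and 41.9 to 87.1 in aged livers, 53.4 to 55.6 and 124 to 148 in lungs, 7.12 to 7.26 and 48.4 to 74.4 in kidneys, and 45.3 to 379 and 92.3 to 135 in WAT. The sums did not overlap between ages in liver, lung and kidney and overlapped in WAT, where young replicate 1 was the highest. That high sum came from Cd52, at 8.52 on this array. Every other gene of the list had its lowest WAT level on the same array. The part of leukocyte RNA was not tested.

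Of 12 macrophage and monocyte genes, 11 of 12 tested were higher in liver, 0 of 12 in lung, 10 of 11 in kidney and 2 of 11 in WAT. Adgre1 (F4/80) rose by 2.54 (SE 0.21, adjusted p = 0.0016) in liver, 3.79 (SE 0.19, adjusted p = 5.7e-05) in kidney and 3.18 (SE 0.55, adjusted p = 0.045) in WAT, with 0.81 (SE 0.50, adjusted p = 0.34) in lung. The largest were Ccr2 in liver (2.81), Lyz2 in kidney (5.51) and Cd68 in WAT (3.72). The summed level was 91.9 to 119 in young and 311 to 428 in aged livers, 170 to 203 and 160 to 315 in lungs, 40.7 to 46.9 and 136 to 193 in kidneys, and 74.2 to 206 and 369 to 781 in WAT. In lung, 1 macrophage gene had an unadjusted p under 0.05 in limma's fit and the t-test called 0. Of 12 B and plasma cell genes, 3 of 11 tested were higher in liver, 0 of 12 in lung (2 at an unadjusted p under 0.05, 0 by the t-test), 8 of 12 in kidney (with Pax5 and Cr2 lower) and 8 of 12 in WAT. Cd79a, a chain of the B cell receptor, rose by 1.07 (SE 0.17, adjusted p = 0.0026) in kidney and 2.70 (SE 0.42, adjusted p = 0.036) in WAT, with 0.21 (SE 0.68, adjusted p = 0.83) in liver and 0.03 (SE 1.11, adjusted p = 0.99) in lung. Jchain, of plasma cells, led in liver (4.88), the kidney (7.95) and WAT (6.23). The summed level was 2.60 to 4.01 in young and 6.12 to 25.6 in aged livers, 11 to 20.3 and 7.03 to 100 in lungs, 1.81 to 2.28 and 50.3 to 84.1 in kidneys, and 2.01 to 4.55 and 45.5 to 66.2 in WAT. Of 6 genes of lymphoid stroma, 3 of 5 tested were higher in liver, 0 of 6 in lung (1 at an unadjusted p under 0.05, 0 by the t-test), 5 of 6 in kidney and 2 of 6 in WAT, led by Cxcl13, the B cell chemokine, with 4.66 (SE 1.20, adjusted p = 0.031) in liver, at least 143-fold (adjusted p = 0.00021) in kidney and 5.32 (SE 0.86, adjusted p = 0.040) in WAT. Its lung change was 1.81 (SE 1.66, adjusted p = 0.51).

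The tissue labels were checked against 5 defining genes each. The summed level of a tissue's own list was 4760 to 5490 in young and 3230 to 3760 in aged livers, 1660 to 1700 and 1470 to 2280 in lungs, 1230 to 1480 and 570 to 870 in kidneys, and 867 to 1380 and 816 to 1320 in WAT. In the livers and kidneys the aged sums thus lay below all young sums, with 1 of 5 liver genes called lower in liver, and 3 of 5 kidney genes called lower and 1 higher in kidney. Liver genes also moved elsewhere. Their sum in young lungs was 7.34, 19.5 and 7.84, and in aged lungs 225, 5.72 and 2.95. Aged lung replicate 1 alone was thus high, and no liver gene was called in lung. Clec4f, which marks liver macrophages, was well above background on no young and on all 3 aged lung arrays. Its aged mean was at least 18.96-fold higher, without a call (adjusted p = 0.11). The aged lungs were widely spread for it, with a mean of -1.59 and a standard deviation of 3.79. Without aged lung replicate 1, 4 of the 10 genes were called higher in lung. In the kidneys the liver sum was 351 to 417 in young and 125 to 234 in aged mice, with 4 genes called lower. Adipocyte genes also moved elsewhere: their sum was 0.542 to 2.09 in young and 1.58 to 15.8 in aged kidneys, and 65.7 to 112 in young and 5.69 to 17.4 in aged lungs. In the kidney 4 of the 5 were called higher and Lep lower, with Adipoq at 4.23 (SE 1.38, adjusted p = 0.035) and Cfd at 5.00 (SE 1.64, adjusted p = 0.036), and in lung Plin1 and Cidec were called lower (Plin1 by -4.89, SE 0.79, adjusted p = 0.029). The adipocyte sums thus did not overlap between ages in lung, and overlapped in kidney, where the t-test called 0 of these genes higher. The part of liver, kidney or adipose RNA in the changes of the 10 genes was not tested.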

How the data were processed

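The authors deposited intensity values. Agilent Feature Extraction 11.0.1.1 had written, per the file headers, a processed signal, after background subtraction, for each of 62976 spots of a mouse array (build mm9), with 1 colour (Cy3). Of 56605 probes, 32994 (58.3%) matched a RefSeq symbol of GRCm38.p6. The share of probes called well above background ran from 58.6% to 71.1% over the arrays, whose number limits precision. No spot was saturated, and 1841 spots marked as uneven or outliers were left out. Log2 signals were scaled to the 75th percentile of each array. A probe was kept where 3 or more of a tissue's 6 arrays called it well above background. Ages were compared within a tissue, and tissues in a fit of all 24 arrays, by limma 3.58.1 in R 4.3.3 (lmFit and eBayes, Benjamini-Hochberg adjustment, threshold 0.05), tested on simulated data. Of 100 genes changed by 1 there, 16 were recovered in liver, 42 in lung, 61 in kidney and 2 in WAT. Of 100 changed by 3, the numbers were 93, 95, 93 and 73, so the power to call a change differed by tissue. With 3 arrays against 3, an exact permutation test cannot go below p = 0.1 and was not used. Figures were drawn with matplotlib in Python. The alternatives were normexp background correction (offset 16), quantile normalization, scaling to 7 spike-in probes, no filter, averaging the probes of each gene, 1 fit over the 24 arrays, a replicate block, the methods' t-test on the same values, only genes with a symbol, leaving out each array and, added after seeing the data, centring each array on its median tested gene and the other probe of Cd8a, Lag3 and Tox. Named genes are the 10 genes, 18 genes of related cell types and states, the called gene with the largest change in each list and tissue (a gene with a lower limit only was not ranked), and the 3 genes most alike to each of the 10. A few list members called lower, and Adipoq, Cfd, Clec4f, Cd2, Cd3d, Klrk1 and Il2rb, were named after their values were seen, as was Cd3g in liver. The 10 genes and all lists were chosen with earlier results of these data known. The values of a single gene in these lists are not reported here, and it stays in the counts of its list.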

Additional observations from a re-analysis of the deposited data

Results flagged for a closer look

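The age change of 3 of the 10 genes differed between tissues by the test of the difference itself. This was limma's contrast of 1 tissue with the mean of the others over 24 arrays. Among all genes, it was called for 10.8% for liver, 9.65% for lung, 18.4% for kidney and 11.0% for WAT. Of the 10 genes, 3 were called for liver. For lung, kidney and WAT it was 1 each, near or below the share of all genes. On the log2 scale, the change in liver minus the mean change of the other tissues was -1.56 for Eomes, -1.14 for Lag3 and -1.77 for Cd8a. The same difference for Lag3 was 1.46 for lung, 1.20 for kidney and -1.52 for WAT. The Lag3 contrasts share the same arrays and are not independent of each other. Read from the second probes, no Cd8a or Lag3 difference passed the threshold. The second Cd8a probe was well above background on no young liver array and the second Lag3 probe on 1 of 6 liver arrays. The size of those liver changes was thus not measured. In liver the second Cd8a probe still rose at least 2.90-fold, where the first changed by -0.24. The Cd8a liver difference thus rests on the first probe. The second Lag3 probe gave differences of 0.61 for lung and -1.42 for WAT. The second Tox probe gave called differences for liver (-1.72) and kidney (1.24), where the first Tox probe gave none. It was well above background on no young kidney or WAT array.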

How the results depend on the processing

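Kidney calls of the 10 genes were the firmest: the count of genes higher stayed between 7 and 8 under every alternative. In the liver, the main count of 4 fell to 2 with a replicate block (on the numbers both ages share) and to 2 with the methods' t-test after adjustment, and ranged from 2 to 5 with 1 array left out. In the lung, the main count of 5 fell to 2 without the filter, to 0 with a replicate block and to 0 with the t-test, and ranged from 0 to 5 with 1 array left out. In WAT, the main count of 2 rose to 7 with all 24 arrays in 1 fit, fell to 0 with the t-test and ranged from 0 to 2 with 1 array left out. Genes whose change differed between tissues numbered 3 in liver, and 1 to 4 with 1 array left out. With the other probes, a Tox difference was called for liver and for kidney. In the lung (1 gene) there were 2 with normexp and 0 with the other probes, and 0 to 1 with 1 array left out. In the kidney (1) there were 0 with normexp and 0 to 1 with 1 array left out, and in WAT (1) 2 with normexp, 0 with the other probes and 0 to 2 with 1 array left out. The cause was not tested. The liver change of Cd8a turned to 1.19 with the mean of its probes, of which the second was well above background on no young liver array, and the Pdcd1 lung difference of -0.29 to 0.995 with normexp. Of the other values for single genes, 994 kept direction and side of the threshold, 32 changed sign without a call on either side, 70 lost the call and 22 gained it. Over the 16 alternatives, Pdcd1 was called in 16 in liver, 12 in lung, 16 in kidney and 11 in WAT, and Gzmk in 16, 2, 16 and 11. Gzma was called higher in liver with spike-in scaling (1.49, adjusted p = 0.016) and without aged liver replicate 1 (1.84, adjusted p = 0.030). Gzma was called lower in kidney with normexp (-0.58, adjusted p = 0.044), and Prf1 without young kidney replicate 2 (-0.38, adjusted p = 0.027). Within a tissue, young and aged arrays of the same number did not deviate together (correlations -0.166 to 0.181). No pairing of ages by number was thus seen. This check does not bear on whether 1 mouse gave several tissues. Signal over background limits Gzmk and Pdcd1 in young mice, where many arrays give a bound only.

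Counts over all genes moved too. Higher and lower calls in liver, 2928 and 4749, were 2516 and 972 with spike-in scaling, 1068 and 630 with the block, 1321 and 1785 with the t-test, and 3283 and 12841 without the filter. In the lung, 825 and 875 became 304 and 136 without the filter, 602 and 370 in the fit of all arrays, 1 and 0 with the block and 104 and 137 with the t-test. In the kidney, 6483 and 13410 became 9281 and 4392 with spike-in scaling. In WAT, 605 and 174 became 3213 and 3166 in the fit of all arrays, 413 and 76 without the filter, 323 and 41 with the block and 1 and 0 with the t-test. Spike-in scaling moved the median change of all genes from -0.20 to -0.09 in liver, from -0.08 to -0.18 in lung and from -0.23 to 0.16 in kidney.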
